A study of Mus musculus with 2 samples.

Results

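Axon guidance and cell migration use a small set of ligand and receptor families, and 64 of the 27998 rows of the gene table belong to those described here. The rows were picked by gene symbol: semaphorins, plexins, neuropilins 1 and 2, Slits, Robos, ephrins, Eph receptors and Prokr2. This set was chosen with earlier results of these data known. Of the 64 rows, 30 were receptors, 31 were ligands and 3 were antisense transcripts of Plxna4, so the set holds ligands as well as the receptors. All 64 matched the GENCODE mouse annotation by gene ID.

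The cells came from the lateral subventricular zone, the stem cell niche beside the lateral ventricle, of male C57BL/6 mice. The young sample pooled 4 animals aged 2 months and the old sample 8 animals aged 22 months, and the labels name no transgene or treatment. Sorting kept cells positive for GLAST, which stem cells and astrocytes carry, and negative for O4, Ter119 and CD45. From each sample 8000 sort events entered droplet capture. Each age gave 1 library. Barcodes end in 1 or 2, here called library 1 and library 2. No label says which age either number stands for, so no difference between them is read as one of age.

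Semaphorins signal through plexins, with neuropilins as co-receptors for the secreted members. Slits signal through Robo receptors and repel many migrating neurons, while ephrins and Eph receptors signal between touching cells, often in both directions. In the adult subventricular zone, neural stem cells produce transit amplifying progenitors and then neuroblasts, which migrate in chains along the rostral migratory stream to the olfactory bulb. Slits are known to repel neuroblasts there, and Prokr2, the receptor of prokineticin 2, is needed for their arrival in the bulb.

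Library 1 had 10440891 counted molecules (UMIs, molecular tags that count each captured transcript once) in 1849 barcodes, and library 2 had 13330251 in 2088 barcodes. The median per barcode was 4463 UMIs in library 1 and 5763 in library 2, and 4 barcode sequences occurred in both. After filters, 1825 and 2064 cells were clustered with the 64 rows held out, so guidance genes did not shape the clusters. Quiescent cells, in which stem cells and astrocytes were not separated, numbered 712 in library 1 and 593 in library 2. Activated stem cells and progenitors numbered 371 and 648, and neuroblasts 365 and 506, and these 3 classes together are called lineage cells. Each name means "like" that type. The 18 quiescent markers, Slc1a3 (GLAST) among them, were all detected in quiescent cells and summed to 70725 CPM (UMIs per 1000000 UMIs of the class) in library 1 and 59323 in library 2. Although the sort excluded O4, 99 and 9 cells were oligodendrocyte-like. Clusters 2 and 10 stayed unnamed, and together held 257 cells of library 1 and 261 of library 2.

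The 64 members had 13614 UMIs in lineage cells, 7036 of them from receptors and 6576 from ligands. Of the members, 30 (14 receptors and 16 ligands) had at least 50 UMIs in lineage cells in each library. The other 34 had 0 to 104 UMIs over both libraries, with 2 at 0, 20 at 1 to 20 and 12 above 20. At such counts most of those members cannot be compared, and they are given by range and count. Prokr2, Robo1, Plxna1, Ephb6, Sema4d and Sema5a are among them and are named only because a role or a count of calls needs it. The antisense transcripts had 1 UMI each (Plxna4os1 and Plxna4os2) or 0 (Plxna4os3). Levels are CPM of the UMIs summed over a class. Counts come from transcript ends and are not per length, so levels of different genes are not compared.

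Of the 64 members, 33 had a RefSeq promoter window (GRCm38.p6, the 250 bases before a transcript start) free of exons of protein-coding genes. Windows are shown for 2 members higher and 2 lower in neuroblasts than in quiescent cells. They belong to the members with the largest ratios for which a window could be shown. Each lies at an annotated transcript start, which need not be the main start of its gene. Capitals mark CAGATG or its reverse complement CATCTG, an E-box type bound by proneural factors. CAGCTG, another E-box, and TAATTA, a homeobox core, were searched as well, on both strands, and matches to different motifs cannot overlap. Sema6c (chr3:95160170-95160419, plus strand) and Epha3 (chr16:63864176-63864425, minus strand) were higher in neuroblasts. Sema4a (chr3:88459102-88459351, minus strand) and Ephb1 (chr9:102354694-102354943, minus strand) were lower. Of the GENCODE transcripts, 1 of 15 of Sema6c and 4 of 6 of Epha3 start in or just after the window shown. For Sema4a it is 2 of 19 and for Ephb1 3 of 6.
Sema6c: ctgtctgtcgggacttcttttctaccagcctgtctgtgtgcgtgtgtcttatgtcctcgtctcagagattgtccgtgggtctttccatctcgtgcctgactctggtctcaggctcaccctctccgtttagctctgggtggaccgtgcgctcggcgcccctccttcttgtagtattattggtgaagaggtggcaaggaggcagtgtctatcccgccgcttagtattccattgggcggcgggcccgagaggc
Epha3: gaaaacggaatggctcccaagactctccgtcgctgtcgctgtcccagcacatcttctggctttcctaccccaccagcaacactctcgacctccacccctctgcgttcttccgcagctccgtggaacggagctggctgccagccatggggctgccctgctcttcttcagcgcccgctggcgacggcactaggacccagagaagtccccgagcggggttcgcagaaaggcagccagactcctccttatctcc
Sema4a: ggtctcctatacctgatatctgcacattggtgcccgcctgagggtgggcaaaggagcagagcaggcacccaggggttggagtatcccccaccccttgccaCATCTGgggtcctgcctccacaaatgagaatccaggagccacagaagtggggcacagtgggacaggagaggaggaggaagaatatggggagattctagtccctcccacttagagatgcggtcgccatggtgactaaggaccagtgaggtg
Ephb1: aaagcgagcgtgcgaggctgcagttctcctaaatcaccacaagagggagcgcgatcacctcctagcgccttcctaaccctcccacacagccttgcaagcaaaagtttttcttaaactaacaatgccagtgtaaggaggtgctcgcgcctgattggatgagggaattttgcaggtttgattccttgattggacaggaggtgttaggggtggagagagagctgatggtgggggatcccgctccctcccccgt
Only the Sema4a window of these held a match, 1 CATCTG. CpG pairs numbered 15 in the Sema6c window, 16 in Epha3, 10 in Ephb1 and 3 in Sema4a. Over the 33 windows the median was 15 CpG pairs, against 6 over all 32851 RefSeq windows, which were not screened for exons. CAGCTG was in 12.1% of the members' windows and 13.0% of all windows, CAGATG or CATCTG in 9.09% and 14.4%, and TAATTA in 3.03% and 4.84%. These shares depend on the window rule: with any window allowed, CAGCTG was in 10 of 51 members' windows (19.6%), and with windows free of exons of any gene in 3 of 29 (10.3%), so nothing is read from them.

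Neuroblasts and quiescent cells used different members of the same families. A member was called higher or lower when its CPM differed at least 2-fold the same way in both libraries, with at least 20 UMIs in both classes together in each library. Of the 64 members, 34 passed that filter, 12 were higher in neuroblasts and 8 were lower. Over all 10504 genes that passed, 15.2% were higher and 21.4% lower. The share of members higher was thus above that of all genes and the share lower near it. The members were chosen with earlier results of these data known, so nothing is read from these shares. The median gene with at least 50 UMIs in each class was itself 0.38 (log2) higher in neuroblasts in library 1 and 0.12 in library 2. With size factors that remove this shift the split became 8 higher and 12 lower, against 11.3% and 24.5% of all genes under the same scaling, so which direction holds more members depends on the scaling. Each ratio was taken within a library, and the libraries are of different ages and no replicates of one group. No test was made, and intervals cover counting error only.

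**Figure D1:**
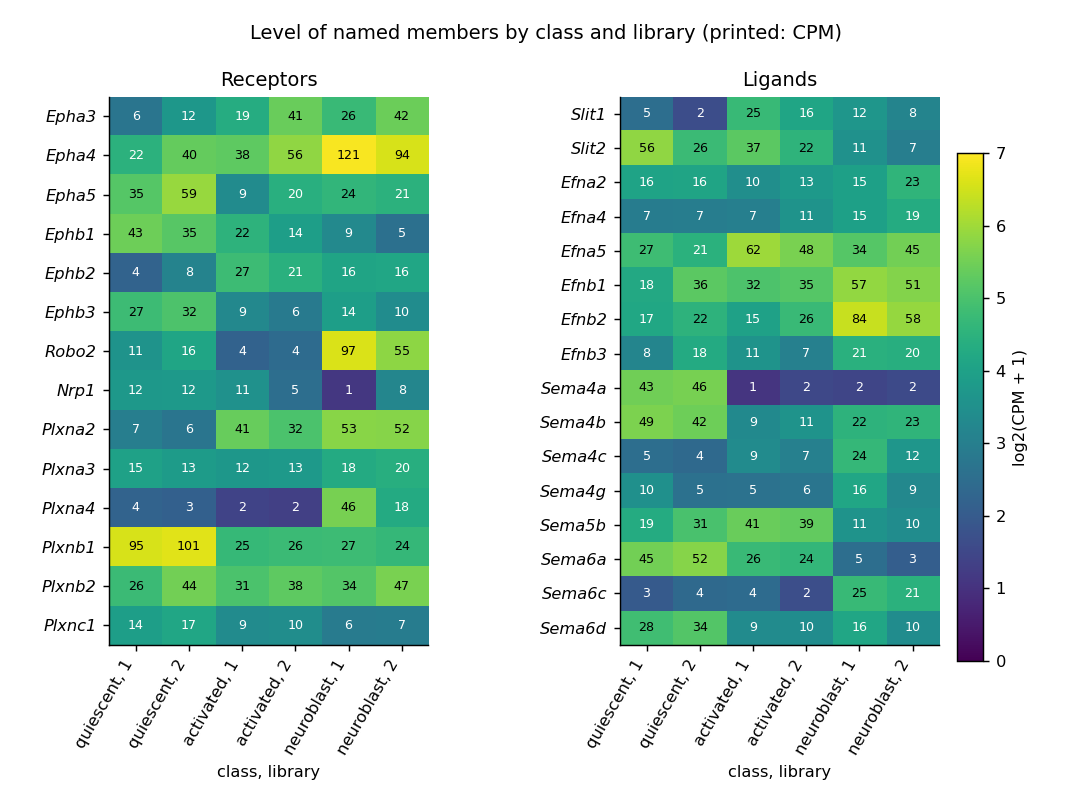
Level of the 30 members with at least 50 UMIs in lineage cells of each library, receptors left and ligands right, in columns of class and library. Color is log2(CPM + 1) and the printed number is CPM. Within their rows, Robo2 and Plxna4 are brightest in the neuroblast columns and Sema4a and Plxnb1 in the quiescent columns.

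Among receptors, Robo2 and Plxna4 were high in neuroblasts and low in both other classes. Robo2 (chr16:73891839-74411825, GRCm38), a Slit receptor, stood at 11.1 and 16.3 CPM in quiescent cells of libraries 1 and 2, at 3.58 and 4.43 in activated cells and at 96.9 and 55.1 in neuroblasts. That made it 8.71-fold and 3.38-fold higher in neuroblasts than in quiescent cells, and the intervals of neuroblasts (82.6 to 113 and 47.0 to 64.1) lay above those of both other classes. It was also lower in activated than in quiescent cells, by 3.11-fold and 3.68-fold, a call that was lost with cells thinned to 2000 UMIs (smaller log2 ratio of both libraries -0.59 instead of -1.64). Cells thinned to 2000 UMIs with a Robo2 UMI made up 20.6% and 14.1% of neuroblasts, 2.05% and 3.23% of quiescent cells, and 0 of 92 oligodendrocyte-like cells in library 1, which should lack it.

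Plxna4 (chr6:32144268-32588192), a plexin for secreted and class 6 semaphorins, followed the same order. Its level was 3.71 and 3.43 CPM in quiescent cells, 1.65 and 1.53 in activated cells and 46.1 and 18.5 in neuroblasts. The neuroblast level was 12.4-fold and 5.38-fold that of quiescent cells and 27.9-fold and 12-fold that of activated cells. Its antisense partners lie on the other strand of the same locus, and whether the counting used strand is not given in the sources used here.

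Prokr2 (chr2:132337733-132385447) had most of its few UMIs in neuroblasts. It had 40 and 19 UMIs in neuroblasts (23.6 and 6.27 CPM), 4 and 5 in activated cells and 2 and 0 in quiescent cells. Against activated cells it was 21.4-fold and 7.35-fold higher. Against quiescent cells it missed the filter by 1 UMI in library 2, where the comparison with 0 gives only at least 4.86-fold higher.

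Plxna2, Epha3 and Ephb2 were also higher in neuroblasts than in quiescent cells, and were already higher in activated cells. Plxna2 (chr1:194618218-194816869), a plexin-A, went from 7.04 and 5.58 CPM in quiescent cells to 40.8 and 31.7 in activated cells and 53.2 and 51.8 in neuroblasts. Epha3 (chr16:63543534-63864175), a receptor of A-type ephrins, went from 5.56 and 12 to 19.3 and 40.9 and to 26.0 and 41.9. Ephb2 was highest in activated cells, at 26.7 and 20.6 CPM against 3.71 and 7.73 in quiescent cells and 15.9 and 16.5 in neuroblasts. Epha4 (chr1:77367185-77515088), which binds both ephrin types, rose stepwise from 21.5 and 39.9 CPM to 37.7 and 55.7 and to 121 and 94.0, although only the step from quiescent cells to neuroblasts passed 2-fold in both libraries. The Ephb2 call in neuroblasts against quiescent cells was lost in 5 of 12 alternative settings, with a smaller log2 ratio of 0.34 after thinning. With at least 50 UMIs (1.09) and with the largest cluster of each class (2.24) its ratio stayed past 2-fold and only the UMI minimum failed. Plxna2, Epha3 and Ephb2 were the 3 receptors called higher in activated than in quiescent cells, and for all 3 neither library reached 2-fold between activated cells and neuroblasts.

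Other receptors were highest in quiescent cells. Plxnb1 (chr9:109095389-109119917), the receptor of Sema4d, stood at 94.9 and 101 CPM in quiescent cells, 24.8 and 26.1 in activated cells and 26.6 and 24.1 in neuroblasts. The drop to activated cells was 3.83-fold and 3.89-fold, and activated cells and neuroblasts had overlapping intervals. Ephb1 (chr9:101922128-102354693), a receptor of B-type ephrins, stood at 42.6 and 35.2 CPM, 22.0 and 14.1, and 8.86 and 4.95 in the same order of classes. The step at which Ephb1 was called depended on the clustering: at resolution 2 the log2 ratio was -1.21 for activated against quiescent cells and -0.18 for neuroblasts against activated cells, instead of -0.95 and -1.31. Epha5 and Ephb3 were lower in activated than in quiescent cells (3.72-fold and 2.92-fold, 3.13-fold and 5.04-fold). Plxnc1, a plexin for Sema7a, was lower in neuroblasts on 11 and 20 UMIs against 38 and 39 in quiescent cells. Ephb6 was called lower in both other classes and Robo1 in activated cells, on 33 UMIs or fewer in each class and library. Thinning to 2000 UMIs ended the Plxnc1 call and turned its sign.

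**Figure D2:**
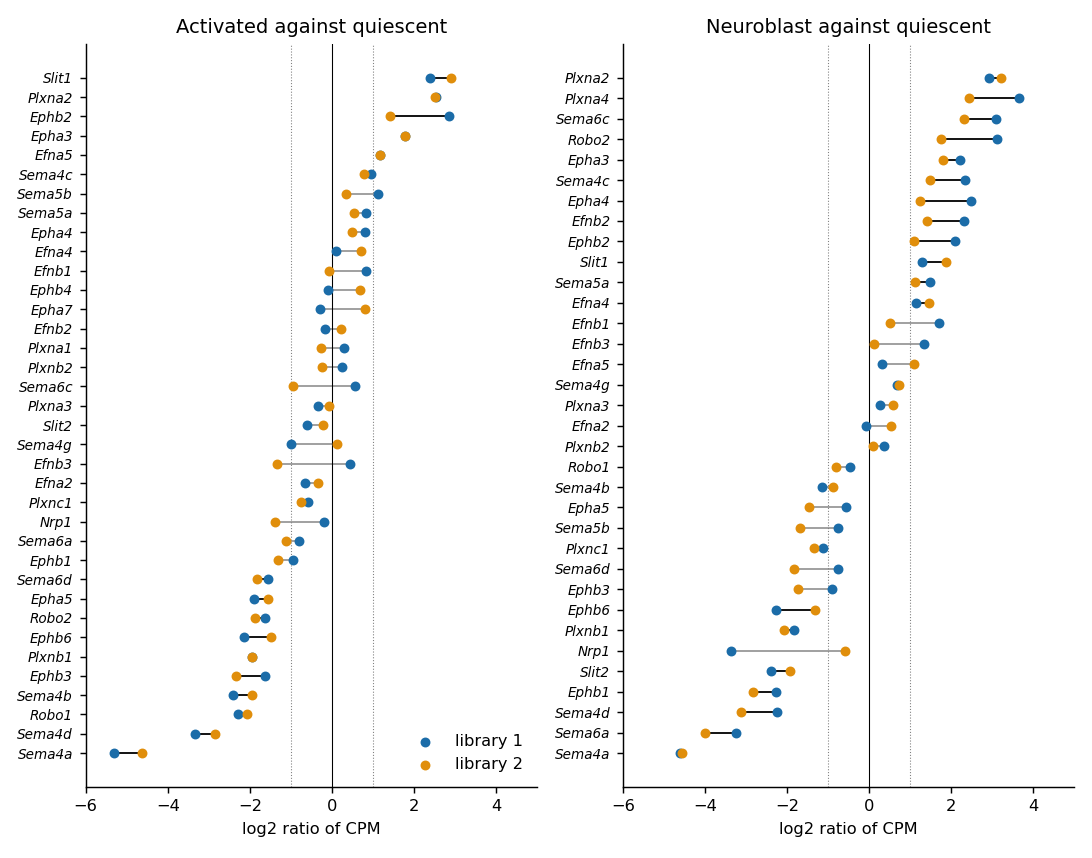
Log2 ratio of CPM for every member that passed the UMI filter, activated against quiescent cells left and neuroblasts against quiescent cells right. Blue dots are library 1 and orange dots library 2, joined by a black line when called and a gray line when not, and dotted lines mark 2-fold. Sema4a is lowest in both panels, at -5.30 and -4.63 and at -4.61 and -4.55.

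Ligands showed the same division. Sema4a (chr3:88435959-88461182), a transmembrane semaphorin, differed from quiescent cells more than any other member tested: 43.4 and 46.4 CPM in quiescent cells, 1.10 and 1.87 in activated cells and 1.77 and 1.98 in neuroblasts. It was 39.4-fold and 24.7-fold lower in activated and 24.5-fold and 23.4-fold lower in neuroblasts than in quiescent cells. The first of these neuroblast values rests on 3 UMIs, with an exact interval of the ratio of 8.17 to 120.4. After thinning, 60 of 634 and 52 of 558 quiescent cells had a Sema4a UMI, against 0 of 366 and 0 of 644 activated cells, with exact upper bounds of 1.00% and 0.571%. Sema4d, the ligand of Plxnb1, had few UMIs but the same shape, at 11.1 and 17.2, 1.10 and 2.39, and 2.36 and 1.98 CPM.

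Sema4b dipped in activated cells, and Sema6d was lower there than in quiescent cells. Sema4b (chr7:80186841-80226527), a transmembrane semaphorin, stood at 48.6 and 42.5 CPM in quiescent cells, 9.09 and 11.1 in activated cells and 21.9 and 23.1 in neuroblasts, so it was called lower at the first step and higher at the second. Without cluster 3 the second difference shrank to 0.38 (log2) and was no longer called. Sema6d, which can bind Plxna1, was 2.97-fold and 3.55-fold lower in activated than in quiescent cells. In neuroblasts Sema6d stood at 16.5 and 9.56 CPM, against 9.36 and 9.54 in activated cells, and was not called between them.

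Sema6a and Slit2 were called lower in neuroblasts than in both other classes, and neither was called lower in activated than in quiescent cells. At resolution 2 Sema6a was called lower in activated than in quiescent cells as well (log2 ratio -1.14). Sema6a, a ligand of Plxna2 and Plxna4, had 44.9 and 52.4 CPM in quiescent cells, 25.6 and 24.0 in activated cells and 4.73 and 3.30 in neuroblasts. It was thus lowest in the class in which both of those plexins were highest. Slit2 (chr5:47983138-48307733), a secreted Robo ligand, had 56.0 and 26.2 CPM in quiescent cells, 36.6 and 22.3 in activated cells and 10.6 and 6.92 in neuroblasts. It was thus lowest in the class with the highest Robo2. In cluster 3 against quiescent cluster 0 its ratio was -0.48 (log2) and no longer called. Sema5b was highest in activated cells (41.0 and 39.0 CPM), 3.66-fold and 4.08-fold above neuroblasts.

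Slit1 differed from Slit2. Slit1 (chr19:41600257-41743665) had 4.82 and 2.15 CPM in quiescent cells, 25.3 and 16.2 in activated cells and 11.8 and 7.91 in neuroblasts. It was higher in activated than in quiescent cells by 5.26-fold and 7.54-fold. Its call as lower in neuroblasts than in activated cells was lost in 6 of 13 alternative settings, and in cluster 3 against cluster 1 the ratio turned to 0.58 (log2). Efna5, an A-type ephrin, was the other ligand called higher in activated cells, at 61.7 and 47.5 CPM against 27.4 and 21.0.

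Ligands that were higher in neuroblasts were Sema6c, Efnb2, Sema4c, Efna4, Sema5a and Slit1. Sema6c (chr3:95160457-95174024), a transmembrane semaphorin, stood at 2.97 and 4.29 CPM in quiescent cells, 4.41 and 2.22 in activated cells and 25.4 and 21.1 in neuroblasts. Efnb2, a B-type ephrin that binds Epha4, stood at 17.1 and 21.9, 15.1 and 25.6, and 84.5 and 58.4 CPM. Sema4c was 5.02-fold and 2.76-fold, Efna4 2.21-fold and 2.74-fold and Sema5a 2.79-fold and 2.18-fold higher in neuroblasts than in quiescent cells. This call held in 7 of 12 alternative settings for Slit1, 8 for Efna4 and 9 for Sema4c. For Sema6c and Efnb2 it held in all 12. In the settings where Sema4c was lost, its smaller log2 ratio was 1.47 or more and only the UMI minimum failed. Efna4 fell below 2-fold only with size-factor scaling (0.77), and Slit1 only with thinning (0.66) and that scaling (0.91). Their other losses came from the UMI minimum. Sema4c and Efna4 overlap the genes D430040D24Rik and 4731419I09Rik, whose reads could be shared with them.

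In counts, 36 members passed the filter in activated against quiescent cells, with 5 higher and 10 lower, where 13.4% and 18.7% of 10974 genes were called. In neuroblasts against activated cells 33 passed, with 7 higher (Robo2, Plxna4, Prokr2, Robo1, Efnb2, Sema6c and Sema4b) and 6 lower (Ephb1, Plxna1, Sema6a, Slit2, Slit1 and Sema5b). There 4.83% and 5.45% of 10359 genes were called. The shares of members called, 7 and 6 of 33, are above that background in both directions. Since the members were chosen with earlier results of these data known, this excess is not read as a result about them.

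Within neuroblasts Robo2, Plxna4 and Prokr2 were highest in cluster 3, led by Meg3, Stmn2 and Islr2. Cluster 5 was led by cycling genes such as Nusap1 and Ube2c, and cluster 7 by Stmn2 and Dcx. Robo2 stood at 32.0 and 25.9 CPM in cluster 5, 52.6 and 59.6 in cluster 7 and 231 and 170.5 in cluster 3. Plxna4 stood at 13.3 and 5.39, 11.4 and 10.8, and 125 and 86.4 CPM in the same clusters. Prokr2 had no UMI in clusters 5 and 7 of either library, and all its 40 and 19 neuroblast UMIs were in cluster 3 (79.1 and 43.2 CPM). Sema6c had the same order, at 9.33 and 11.3, 25.2 and 24.4, and 49.4 and 56.8 CPM. The intervals of Robo2 and Plxna4 in cluster 3 lay above those in clusters 5 and 7 in both libraries.

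Epha3 and Epha4 did not share that order. Epha3 went the opposite way, at 50.6 and 55.5 CPM in cluster 5, 13.7 and 29.8 in cluster 7 and 0 and 4.55 in cluster 3. In cluster 3 against quiescent cluster 0 its ratio was -0.76 (log2), opposite in sign to the call for the classes, but it was not called. Cluster 3 had no Epha3 UMI in library 1, so this sign rests on very few counts. Epha4 was similar in all 3, at 129 and 89.0, 119 and 94.9, and 111 and 114 CPM. Cluster 3 cells had a median of 2668 and 2692 UMIs and cluster 5 cells 8683 and 9271.5, and the part of depth in these differences was not tested. Without cluster 3, 4 instead of 7 members were called higher in neuroblasts than in activated cells.

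**Figure D3:**
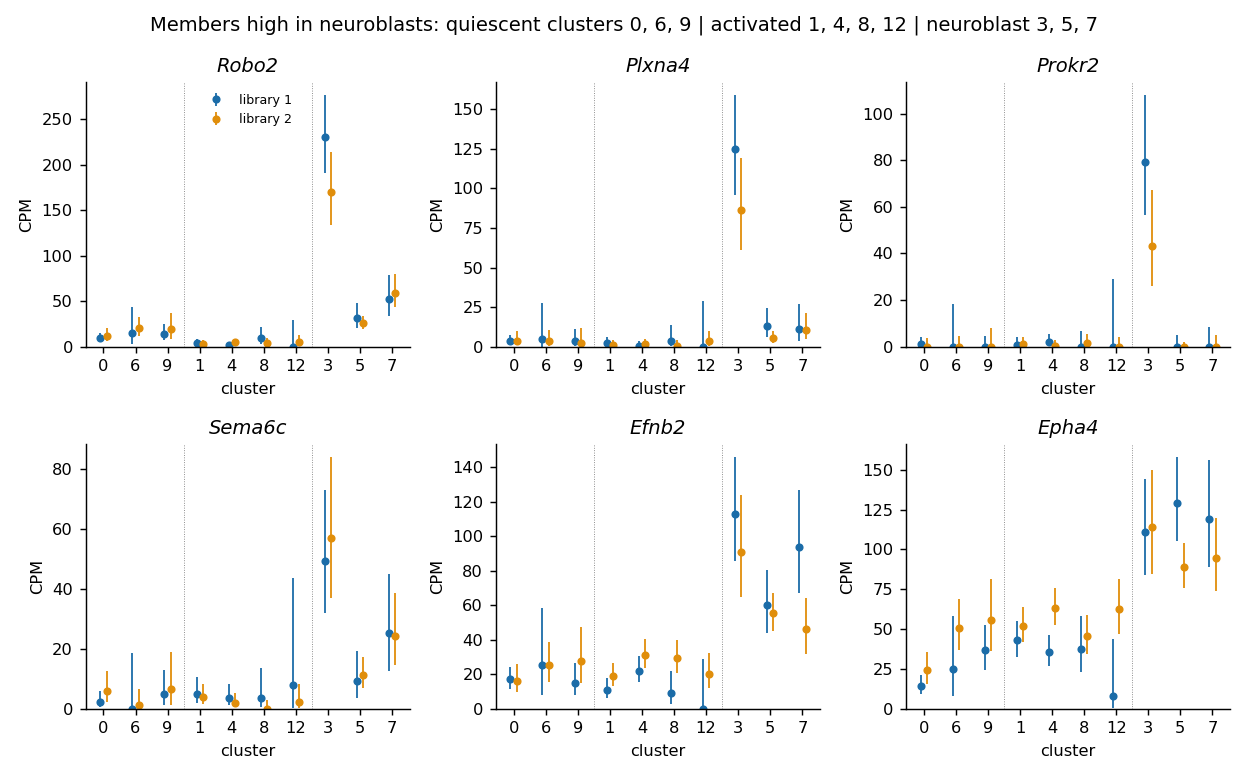
CPM of Robo2, Plxna4, Prokr2, Sema6c, Efnb2 and Epha4 by cluster, with quiescent, activated and neuroblast clusters parted by dotted lines. Dots are libraries (blue 1, orange 2) and bars exact 95% Poisson intervals. Robo2, Plxna4 and Prokr2 peak in cluster 3, and the Epha4 intervals of the neuroblast clusters overlap within each library.

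In single cells of cluster 3, Robo2 was seen with Prokr2 in 19 of 35 Prokr2-positive cells of library 1 and 10 of 18 of library 2. Among cells without a Prokr2 UMI the shares with Robo2 were 37.7% and 38.5%, inside the intervals of the positive cells (36.6 to 71.2% and 30.8 to 78.5%). The share was thus higher beside Prokr2 in both libraries, with overlapping intervals, and the difference was not tested. For Plxna4 the shares with Robo2 were 51.1% against 37.3% in library 1 and 31.2% against 43.0% in library 2, opposite in direction.

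Quiescent clusters also differed in their guidance genes. Sema4a was highest in cluster 0 (58.7 and 74.3 CPM), intermediate in cluster 6 (35.1 and 31.5), which Gfap and Thbs4 lead, and lowest in cluster 9 (12.6 and 10.7). Plxnb1 had 102 and 138, 120.3 and 83.5, and 74.4 and 51.5 CPM in these clusters. Slit2 had the opposite pattern to Sema4a, with 19.4 and 10.6 CPM in cluster 0, 135 and 37.5 in cluster 6 and 115 and 40.8 in cluster 9. Ephb1 and Sema6a were likewise higher in cluster 9 (66.8 and 38.6 CPM, 69.3 and 60.1 CPM) than in cluster 0 (31.1 and 23.1 CPM, 32.3 and 44.4 CPM), though their intervals overlapped in library 2.

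**Figure D4:**
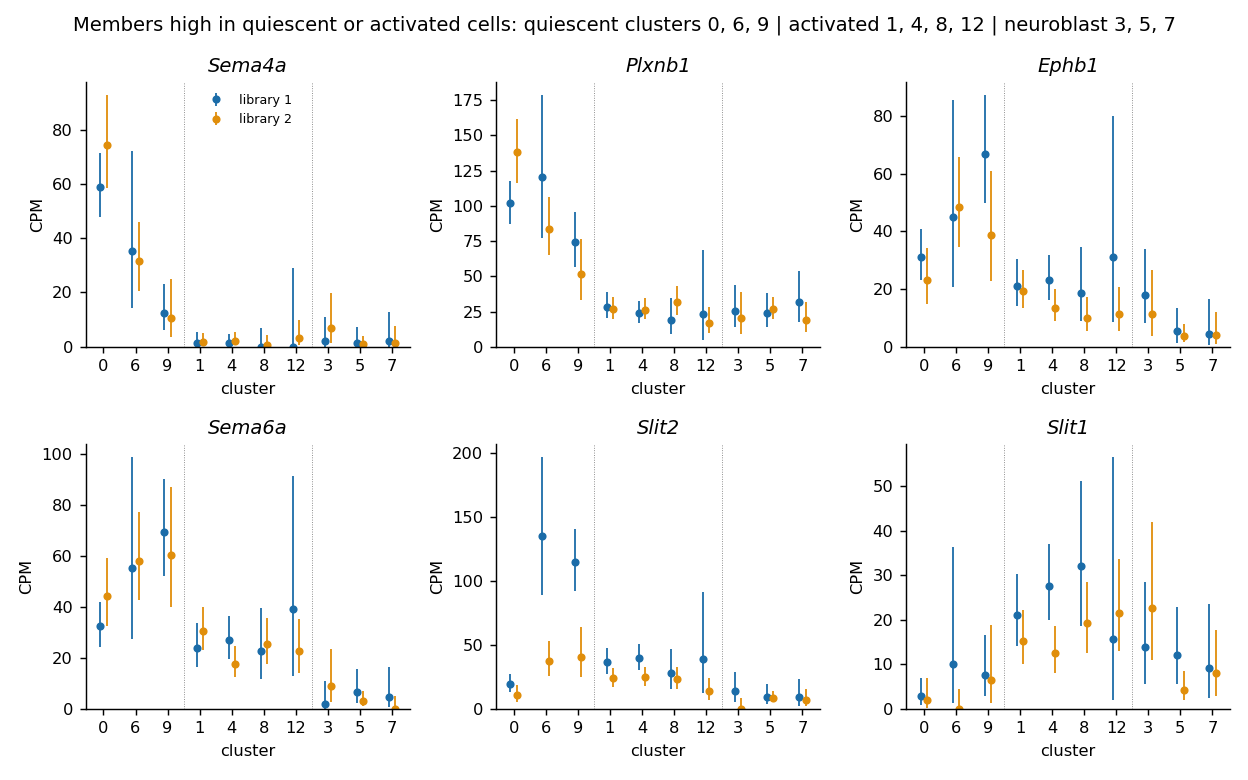
CPM of Sema4a, Plxnb1, Ephb1, Sema6a, Slit2 and Slit1 by cluster, drawn as dots for each library (blue 1, orange 2) with exact 95% Poisson intervals. Sema4a is highest in cluster 0, Slit2 in clusters 6 and 9, and Slit1 is low in cluster 0 and higher in the activated clusters.

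Oligodendrocyte-like cells carried Sema6a, Sema6d, Ephb1 and Efnb3, and RNA of these cells was also found in the other classes. The 10 oligodendrocyte markers were all detected in quiescent cells, at 542 and 231 CPM in sum, against 67994 and 78656 in oligodendrocyte-like cells. At the ratio to these markers seen in oligodendrocyte-like cells, they would bring 0.836 and 0.357 CPM of Sema6a and 0.738 and 0.315 CPM of Ephb1 into quiescent cells. The measured levels were 44.9 and 52.4 CPM and 42.6 and 35.2 CPM. For Efnb3 the same calculation gave 3.76 and 1.60 CPM of the 8.16 and 18.5 CPM measured in quiescent cells.

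Summed over families, both receptors and ligands were lowest in activated cells. The 30 receptors summed to 359.6 and 429.8 CPM in quiescent cells, 283 and 308 in activated cells and 532 and 439 in neuroblasts. The 31 ligands summed to 378 and 398, 321 and 297, and 399.9 and 345 CPM. Receptors were higher in neuroblasts than in quiescent cells beyond the counting intervals in library 1 only, and ligands were lower there in library 2 only. Robo receptors went from 23.4 and 24.9 CPM to 6.06 and 6.82 and to 106 and 60.7. Slit ligands ran 60.8 and 28.3, 62.0 and 38.7, and 23.0 and 14.8 CPM. B-type ephrins were highest in neuroblasts of the 3 classes, at 162 and 129.9 CPM against 43.0 and 76.9 in quiescent cells, while EphB receptors were lowest there, at 40.8 and 35.0 against 87.1 and 86.7.

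**Figure D5:**
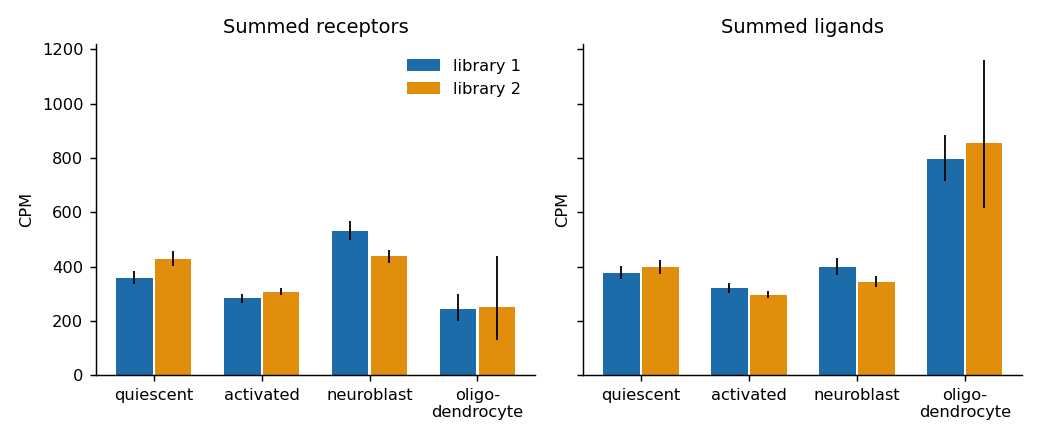
Summed CPM of the 30 receptors (left) and the 31 ligands (right) by class, with bars for library 1 (blue) and library 2 (orange) and exact 95% Poisson intervals. Receptor bars are lowest in activated cells of the 3 lineage classes, and ligands are highest in oligodendrocyte-like cells (796 and 856 CPM).

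Shares of cells with any receptor UMI depend on depth, since activated cells had a median of 9657 and 8891 UMIs and quiescent cells 3507.5 and 3555. With each cell thinned to 2000 UMIs, 49.7% and 59.3% of quiescent cells, 45.6% and 44.9% of activated cells and 66.3% and 57.8% of neuroblasts had one. Without thinning the shares were 68.3% and 78.2%, 89.2% and 86.3%, and 85.5% and 87.7%. Oligodendrocyte-like cells had 41.3% and 37.5% after thinning.

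Partners and neighbouring pathways were taken from lists of known genes. The counts of these lists stand against 15.2% of all genes higher and 21.4% lower in neuroblasts than in quiescent cells. Of 20 tested Slit-Robo partners, 5 were higher and 1 lower in neuroblasts than in quiescent cells. Evl, an actin regulator, was 4.19-fold and 3.34-fold, the syndecan Sdc1 6.64-fold and 2.25-fold and the Ras activator Sos1 2.28-fold and 2.23-fold higher. Sdc3, another syndecan, was 2.56-fold and 2.71-fold lower. Of 23 semaphorin partners, 8 were higher, led by Dpysl5 (13.5-fold and 13.3-fold), Crmp1 (15.2-fold and 9.83-fold) and Dpysl3 (6.31-fold and 9.86-fold), collapsin response mediators that act on microtubules. The 6 lower ones included the actin oxidase Mical2, with 0 and 2 UMIs in neuroblasts against 135 and 59 in quiescent cells. Rap1gap, a Rap inhibitor, was 9.34-fold and 31.2-fold lower, and the adhesion molecule Nrcam 4.78-fold and 10.1-fold lower.

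Of 19 Eph-ephrin partners, 7 were higher and 3 lower. Anks1b was 17.1-fold and 12.5-fold, Sipa1l1 3.63-fold and 3.39-fold and Vav2 3.04-fold and 2.88-fold higher. Ngef, a partner of Eph receptors, was 32.2-fold and 28.5-fold lower, and so were Arhgef19, with 5 and 10 UMIs in neuroblasts against 115 and 115, and Inppl1, at 6.47-fold and 2.99-fold. Only 8 of the netrin, Rgm and Dcc family were testable, with 5 higher and 2 lower. Draxin, a Dcc ligand, was 3.63-fold and 5.12-fold higher, Flrt2 3.60-fold and 2.94-fold and Flrt3 2.87-fold and 3.07-fold. Rgma, a Neogenin ligand, was 7.57-fold and 6.62-fold lower and Flrt1 8.25-fold and 6.21-fold.

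Among 26 other migration genes of the rostral stream, 8 were higher and 9 lower. The polysialic acid enzymes St8sia2 (35.8-fold and 30.1-fold) and St8sia4 (41 and 48 UMIs against 5 and 1) were higher, and so was the microtubule protein Dcx, which also served as a neuroblast marker. The growth factor Ptn was 17.2-fold and 27.9-fold lower, the neurotrophin receptor Ntrk2 18.1-fold and 16.2-fold and Gfra1, a receptor of Gdnf, 10.5-fold and 9.34-fold. Median log2 ratios were 0.36 and 0.45 for Slit-Robo, 0.23 and 0.20 for semaphorin partners, 0.56 and 0.33 for Eph-ephrin partners, 1.68 and 1.20 for the netrin list and 0.73 and 0.057 for the other migration genes, against 0.29 and 0.31 for the members and 0.044 and 0.005 for all genes tested.

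Between libraries within a class, a member was called at 1.5-fold or more with at least 20 UMIs in both together. In quiescent cells 32 were tested, 2 were higher in library 1 (Slit2 and Sema4g) and 9 lower, against 8.38% and 8.86% of 10908 genes. Slit2 was 2.14-fold higher in library 1, and in the same direction in clusters 0 (1.83-fold), 6 (3.61-fold) and 9 (2.81-fold). The lower ones included Epha3 (2.16-fold), Epha4 (1.86-fold), Epha5 (1.70-fold), Ephb2 (2.08-fold) and Efnb1 (2.05-fold), 4 Eph receptors and an ephrin, and the others were Efnb3, Plxnb2, Sema4d and Sema5b. The class was made up differently: cluster 6 was 7.87% of quiescent cells in library 1 and 36.8% in library 2. Epha4, Epha5 and Efnb1 were lower in library 1 in each of the 3 quiescent clusters. In cluster 6 this rests on 5, 10 and 4 UMIs of library 1. The part of class make-up in these differences was not tested.

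In activated cells 35 were tested, 7 were higher in library 1 and 5 lower, against 6.69% and 6.44% of 11308 genes. Slit2 was 1.64-fold and Slit1 1.56-fold higher in library 1, while Epha3 (2.12-fold), Epha5 (2.17-fold) and Efnb2 (1.69-fold) were lower. Epha3 and Epha5 were lower in library 1 in each of the 3 activated clusters with enough cells.

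In neuroblasts 33 were tested, 10 were higher in library 1 and 4 lower, against 10.2% and 6.67% of 10024 genes. Robo2 was 1.76-fold, Plxna4 2.49-fold and Prokr2 3.77-fold higher in library 1. Cluster 3, where these genes are highest, was 49.6% of neuroblasts in library 1 and 30.2% in library 2. Within cluster 3 the differences were 1.36-fold, 1.44-fold and 1.83-fold, and in cluster 7 Robo2 was 1.13-fold lower in library 1. Epha3, highest in cluster 5, was 1.61-fold lower in library 1. Slit2 was 1.54-fold higher in library 1, on 18 and 21 UMIs.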

How the data were processed

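Each library's cells were counted by droplet sequencing of transcript ends. The deposited matrix holds raw UMI counts per gene and barcode, made by the authors with Cell Ranger 2.0.0 per the submitters' processing notes, which also name the builds GRCm38.p3 and mm10. How both libraries were merged and whether depth was equalized is not given in the sources used here. The members and lists were chosen with earlier results of these data known.

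Barcodes under 500 genes or above 10% mitochondrial UMIs were removed, 9 in library 1 and 13 in library 2. Scrublet, with an expected 1.5% doublets, removed 15 and 11. Counts were scaled to 10000 per cell and logged. The 2000 most variable genes, without members and listed guidance genes, entered 30 principal components, a graph of 15 neighbours and Leiden clustering at resolution 1 (seed 1), giving 16 clusters (Python 3.11.15, scanpy 1.11.5, leidenalg 0.10.2). Clusters took the class with the highest share of its markers at 1.5-fold and in 10% of cells. A cluster stayed unnamed with fewer than 3 such markers, a mean log2 fold of that class's markers of 0 or below (clusters 2 and 10), more markers of another class among its 10 leading genes, or a low median UMI count. That rule was set after the clusters were seen and revised 1 time, since its first form left cluster 1 unnamed.

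UMIs were summed per class and library and given as CPM with exact 95% Poisson intervals, and shares with Clopper-Pearson intervals. A count of 0 was set to 3 counts. Members with at least 50 UMIs in lineage cells of each library are named, and of each list up to 3 genes at each end. No values are reported here from a check of the ratio calls on simulated counts, and nothing is read from it. Ages have 1 library each, and class ratios were described in each library, so no test was made. Alternatives changed the cell filters, doublets, resolution, scaling, thinning, UMI minimum, fold and clusters used. Promoter windows are RefSeq's, and each member's window was the one with most GENCODE transcript starts. The screen for exons, and how many windows are shown, were set after windows and motif counts had been seen: the first rule allowed any window, the second none touching an exon of any gene, and the rule used none touching an exon of a protein-coding gene. Member coordinates are from the GENCODE annotation of GRCm38.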

Additional observations from a re-analysis of the deposited data

Results flagged for a closer look

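Both libraries differed in opposite directions for 2 members, depending on the class, and neither difference was tested. For Nrp1, a neuropilin, the log2 ratio of library 1 to library 2 was 1.17 in activated cells and -2.80 in neuroblasts, the latter from 2 and 25 UMIs (6.98-fold lower, exact interval 1.74 to 60.8). For Efnb3, a B-type ephrin, it was -1.18 in quiescent cells and 0.59 in activated cells.

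Cells not named quiescent, activated or neuroblast carried some members at levels above those of these classes. In oligodendrocyte-like cells, pooled over both libraries, Efnb3 stood at 478 CPM (interval 419 to 545), Sema6a at 107, Sema6d at 100.3 and Ephb1 at 94.0. In oligodendrocyte precursor-like cells Epha5 stood at 132 CPM (84.7 to 197), from 24 UMIs in 46 cells. In the unnamed cluster 10, led by Eomes and Neurog2, Sema3c stood at 37.5 CPM (27.0 to 50.7), with 148 cells, 129 of them from library 2. Its best-matching class was neuroblast, and it stayed unnamed because the mean log2 fold of those markers was -0.027.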

How the results depend on the processing

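No paired analysis was possible because no result comes from a test; class ratios were taken within each library. Of 1110 single-member ratios under alternatives, 1007 kept their call or lack of one, 57 gained a call and 43 lost it. The 1.5-fold setting gave 17 of the gained calls, with unchanged ratios. The 6 calls lost with at least 50 UMIs kept their ratios and failed only that minimum. The remaining 3 reversed in sign and were not called. One was Plxnc1 in neuroblasts against quiescent cells when thinned to 2000 UMIs (0.22). With the largest cluster of each class, Epha3 reversed in the same comparison (-0.76), with no UMI in cluster 3 of library 1. Slit1 reversed there in neuroblasts against activated cells (0.58). Of 254 counts, sums and shares 195 stayed and 59 moved.

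The share of all genes called under the same setting stands in parentheses. Counts of members higher in neuroblasts than in quiescent cells became 6 with thinning (16.7%) and 7 with at least 50 UMIs (15.5%), and lower ones 5 with at least 50 UMIs (19.9%) and 13 at 1.5-fold (28.2%). Lower ones in activated against quiescent cells became 6 with thinning (18.1%) and 6 with at least 50 UMIs (17.0%). Higher ones in neuroblasts against activated cells became 4 with stricter cell filters of 1000 genes and 5% mitochondrial UMIs (4.31%), 14 at 1.5-fold (10.5%), 11 with the largest clusters (11.3%) and 4 without cluster 3 (2.67%), and lower ones 3 at resolution 2 (5.52%). Calls between libraries became, in quiescent cells, 17 with at least 5 UMIs (25.2%) and 6 at 2-fold (5.94%). In activated cells they became 6 with thinning (17.3%) and 3 at 2-fold (4.24%), and in neuroblasts 8 with at least 50 UMIs (10.9%), 6 at 2-fold (4.96%) and 9 without cluster 3 (15.3%).

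Summed receptors, in CPM, became with stricter cell filters 334 in activated cells and 414 in neuroblasts of library 2. In activated cells of library 2 they became 347 at resolution 0.5 and 328 with cluster 1 unnamed. At resolution 2 they became 568 and 506 in neuroblasts of libraries 1 and 2, and ligands 402 in quiescent cells of library 1, 274 in activated cells and 392 in neuroblasts of library 2. With the mean of per-cell CPM, receptors became 463 in quiescent cells of library 2 and 621 and 513 in neuroblasts, and ligands 457 and 392 there. With thinning, receptors became 463 in quiescent cells of library 2, 314 in activated cells of library 1 and 603 and 495 in neuroblasts, and ligands 288 and 312 in activated cells and 452 in neuroblasts of library 1. Without cluster 3 neuroblast receptors became 415 and 388 and ligands 339 and 322.

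Shares with a receptor UMI became 55.0% in quiescent cells of library 2 with stricter filters and 49.7% in activated cells of library 2 at resolution 0.5. Thinned to 3000 UMIs they became 64.6% and 65.8% in quiescent cells, 58.4% and 56.6% in activated cells and 74.0% and 69.2% in neuroblasts. Without thinning they became 68.3% and 78.2%, 89.2% and 86.3%, and 85.5% and 87.7%. Without cluster 3 neuroblast shares became 57.0% and 51.0%. The cause was not tested. The settings without cluster 3 and with cluster 1 unnamed were chosen after seeing the data. Of the 64 members 34 had under 50 UMIs in lineage cells of a library.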

Other observations

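The unnamed cluster 2, led by the stress and signalling genes Socs3, Junb and Atf3, is in none of the classes compared. Pooled over both libraries, its 370 cells had Slit2 at 85.2 CPM (73.6 to 98.2), Sema6a at 71.9 (61.3 to 83.9) and Ephb1 at 58.6 (49.0 to 69.5). Slit2 was 2.25-fold higher in library 1 there. It had the same direction in every quiescent, activated and neuroblast cluster with enough cells and UMIs, so this is not particular to quiescent clusters.

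In cluster 10, led by Eomes and Neurog2, Epha4 stood at 79.4 CPM (63.8 to 97.8), Epha3 at 48.2 (36.2 to 62.9), Efna5 at 58.9 (45.6 to 75.0) and Robo2 at 16.1 (9.52 to 25.4).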
